A study of Mus musculus with 12 samples.

Results

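The 6 genes described here encode enzymes and readers of chromatin: Setdb1, Lrif1 (named 4933421E11Rik in the files), Hdac10, Bptf, Brd1 and Setd8 (now Kmt5a). They were chosen by their measured inclusion levels: each has at least 1 splicing event that the authors listed as different after Prmt5 deletion, so the events below are given as a description and carry no test. The 6 genes hold 7 of the 255 events, in 6 of the 222 genes, of the splicing table of mouse neural progenitor cells (NPC). They hold 0 of the 71 events listed in mouse embryonic fibroblasts (MEF), and 0 of the 6 is among the 2416 genes listed by expression in NPC or the 111 in MEF. Absence from these lists does not show that a gene was unchanged, since the lists hold only what passed the authors' filters.

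The tested libraries came from NPC or MEF of the genotype Prmt5 F/FER given 50 nM 4-OHT (4-hydroxytamoxifen) for 24 h. Their controls were cells of the same genotype given ethanol, so both arms carry the conditional Prmt5 allele and the element abbreviated ER. There were 3 libraries in each of the 4 groups, 12 in all. NPC were neurospheres of E14.5 cortex, grown with growth factor at 20 ng/ml and treated on day 4 of culture. MEF were E14.5 primary fibroblasts at passage 1, and all cells were on a mixed C57BL/6 X 129S1/SvlmJ background. The labels do not name the recombinase or its promoter, do not say whether libraries of a group came from separate embryos, and name no group given 4-OHT without the conditional allele. Effects of 4-OHT and of Prmt5 loss therefore cannot be told apart. In the authors' deposited table Prmt5 itself stood at 4.92 RPKM with 4-OHT and 33.4 RPKM with ethanol in NPC, and at 3.76 and 21.0 RPKM in MEF. Of 28 marker genes of progenitors, fibroblasts, neurons, glia, vessels and immune cells, 11 were listed in NPC, 10 of them higher with 4-OHT and Hes5 lower, where 56.6% of all listed NPC genes were higher and 43.4% lower. Over the 6 listed of 7 glial markers the deposited values summed to 137 RPKM with 4-OHT and 73.7 RPKM with ethanol. Aldh1l1 alone stood at 118 RPKM with 4-OHT and 67.7 RPKM with ethanol, and the other 5 summed to 18.5 RPKM with 4-OHT and 5.97 RPKM with ethanol. The lowest listed value of any marker was 0.0658 RPKM, all from the authors' deposited table. The part of such markers in the splicing values was not tested.

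PRMT5 dimethylates arginines of the Sm proteins, which form the core of the spliceosomal snRNPs, and of histones. SETDB1 methylates histone H3 to silence retroelements and genes, LRIF1 binds the heterochromatin protein HP1 (known from human cells), and HDAC10 is a deacetylase of polyamines and proteins. BPTF is the largest subunit of the nucleosome remodelling factor NURF and reads methylated and acetylated histone tails, BRD1 is a bromodomain scaffold of histone acetyltransferases, and SETD8 puts a single methyl group on histone H4. In a retained intron, splicing is left undone and the intron stays in the transcript. In a skipped (cassette) exon, an internal exon is either included or passed over.

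The inclusion level is the fraction of an event's reads that carry the intron or the cassette exon, after the authors' normalization for the length that can give such reads. It was deposited for 1 library with 4-OHT and 1 with ethanol under each of 3 pair codes, 24, 26 and 28, which match no label. An event was listed by the authors in 2 or 3 pairs, each with a deposited p under 0.05 and a difference over 0.2. The 6 genes came closest to these limits with a difference of 0.272 in Bptf and a deposited p of 0.0442 in Setd8, and values outside the limits are not analysed here. Setdb1 and Setd8 were listed in all 3 pairs, 2 of 7 events, against 23.1% of all NPC events, while the other 5 were listed in 2 pairs. Lrif1 and Brd1 lack pair 26, and Hdac10 and Bptf lack pair 24.

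The introns and exons are shown first, because their ends, their lengths and their stop codons set what each event would do to the transcript. Events were matched to GENCODE M21 on GRCm38 by exon and intron lengths within the same Ensembl gene, and the sequences were read from GENCODE transcripts that contain them. For the 3 introns the capitals mark the first 6 bases, which belong to the splice donor, and the last 3, which belong to the acceptor.
Setdb1 intron 13, first 60 bases, chr3:95338286-95338345, minus strand: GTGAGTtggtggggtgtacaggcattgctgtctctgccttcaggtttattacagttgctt
Setdb1 intron 13, last 60 bases, chr3:95337266-95337325, minus strand: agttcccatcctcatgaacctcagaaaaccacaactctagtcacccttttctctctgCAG
Lrif1 intron 2, first 60 bases, chr3:106733143-106733202, plus strand: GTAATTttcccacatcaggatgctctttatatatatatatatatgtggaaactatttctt
Lrif1 intron 2, last 60 bases, chr3:106734298-106734357, plus strand: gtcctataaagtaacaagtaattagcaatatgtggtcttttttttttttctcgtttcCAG
Hdac10 intron 3, whole, chr15:89127692-89127921, minus strand: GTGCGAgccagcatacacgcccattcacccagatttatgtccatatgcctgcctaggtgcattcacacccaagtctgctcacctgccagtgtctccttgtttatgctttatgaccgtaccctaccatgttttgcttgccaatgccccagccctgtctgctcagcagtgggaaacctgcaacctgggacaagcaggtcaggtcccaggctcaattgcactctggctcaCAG

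The cassette exons are shown whole, except that of Brd1, and in lower case.
Bptf exon 5 of transcript Bptf-203, chr11:107095002-107095190, minus strand: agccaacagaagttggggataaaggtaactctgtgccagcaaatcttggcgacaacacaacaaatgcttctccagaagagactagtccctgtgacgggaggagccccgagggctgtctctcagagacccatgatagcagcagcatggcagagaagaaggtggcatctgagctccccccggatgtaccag
Bptf exon 6 of transcript Bptf-203, chr11:107086712-107086897, minus strand: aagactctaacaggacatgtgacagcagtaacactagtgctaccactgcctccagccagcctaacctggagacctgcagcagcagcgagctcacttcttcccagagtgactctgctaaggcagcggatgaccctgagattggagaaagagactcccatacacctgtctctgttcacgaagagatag
Setd8 exon 2 of transcript Kmt5a-201, chr5:124445969-124446084, plus strand: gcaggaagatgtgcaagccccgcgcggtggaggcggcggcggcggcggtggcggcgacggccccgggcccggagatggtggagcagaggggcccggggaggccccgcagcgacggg
Brd1 cassette exon, first 60 bases, chr15:88696615-88696674, minus strand: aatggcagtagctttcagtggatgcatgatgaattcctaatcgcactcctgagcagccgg
These coordinates are all of GRCm38, whereas the positions given with the values below are those of the files, in mm9.

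**Figure D1:**
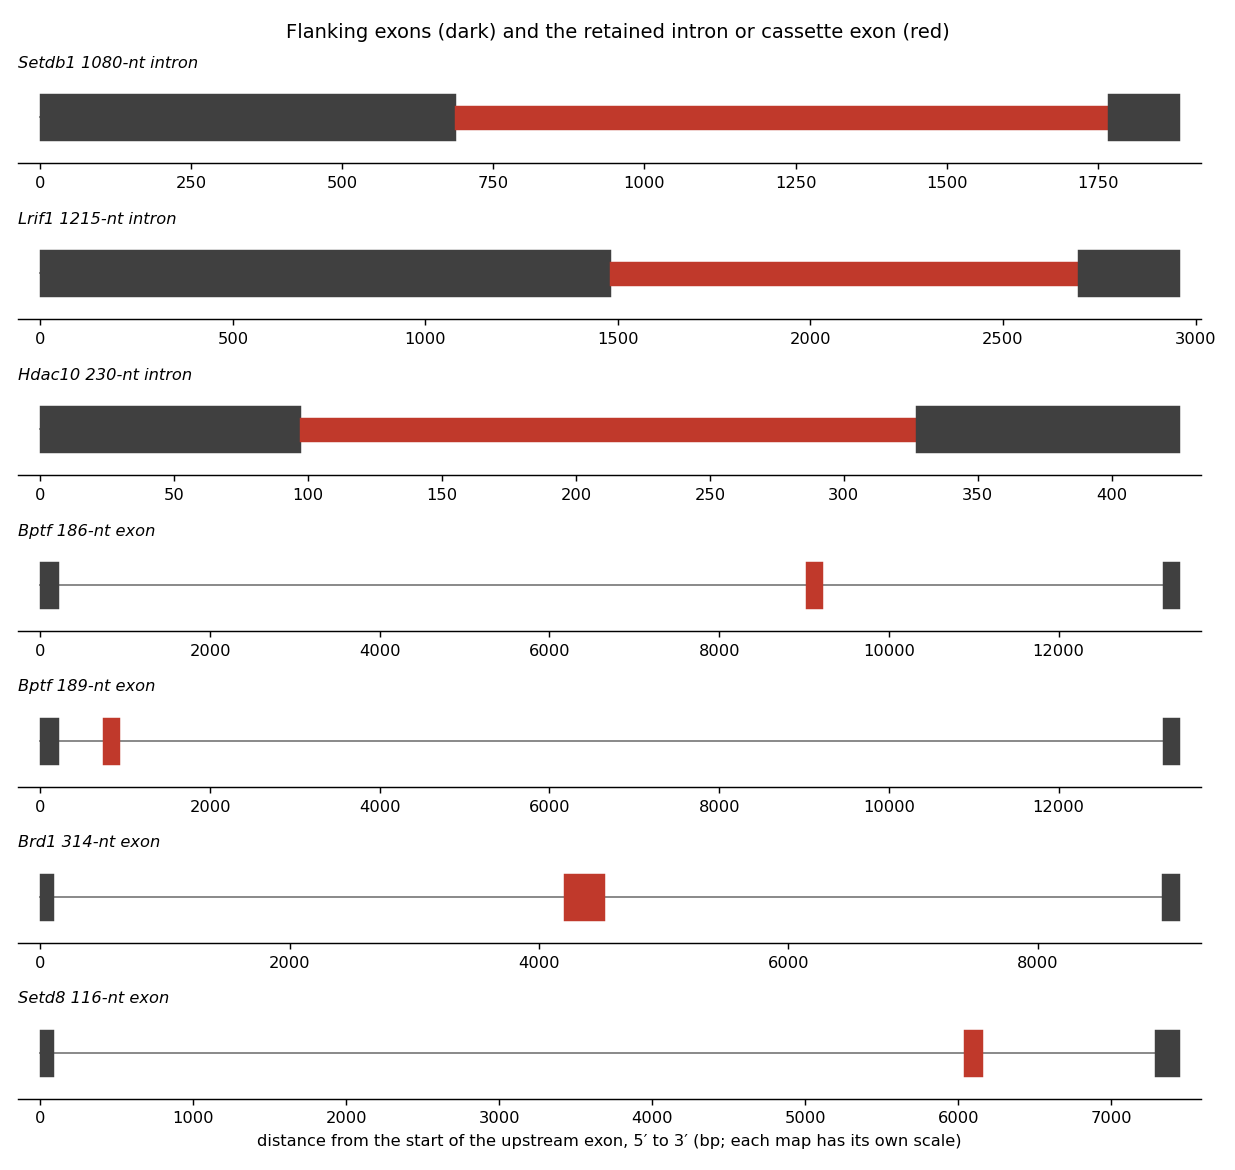
The 7 events drawn from the files' coordinates, 5′ to 3′, with distance from the start of the upstream exon in bp on an axis of its own for each event. Dark boxes are flanking exons, red is the retained intron or cassette exon, and grey lines are introns; the 2 Bptf exons of 186 and 189 bp, drawn on maps of their own, lie between the same flanking exons.

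Retention of 3 introns was higher with 4-OHT than with ethanol: Setdb1 intron 13 by 0.31, Lrif1 intron 2 by 0.90 and Hdac10 intron 3 by 0.57 in mean inclusion level. Of the 82 retained introns listed in NPC, 96.3% had a higher and 3.66% a lower mean level with 4-OHT. In none of the 3 did the 4-OHT and ethanol libraries overlap, as the listing rule itself favours. The share of all listed introns without overlap was not counted, so this is no result about the 3.

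Setdb1 intron 13 spans 1080 bp, chr3:95141188-95142267 in mm9, between exons 13 and 14 of 22. Its inclusion level was 0.516, 0.527 and 0.50 with 4-OHT in pairs 24, 26 and 28, against 0.177, 0.229 and 0.203 with ethanol. The 3 libraries with 4-OHT lay close together, all above the 3 with ethanol. The means were 0.514 ± 0.014 with 4-OHT and 0.203 ± 0.026 with ethanol (SD, n = 3 each), a difference of 0.311 ± 0.024 (SD over 3 pairs). Both kinds of read took part. Inclusion reads numbered 718, 1704 and 1318 with 4-OHT and 296, 653 and 475 with ethanol, a summed ratio of 2.63. Exclusion reads, which cross the spliced junction, numbered 22, 50 and 43 with 4-OHT and 45, 72 and 61 with ethanol, a ratio of 0.646. This was the most deeply read of the 7 events, with a median of 732.5 reads a library against 114 for retained introns of the table. Its change ranked 51 of 82 by size.

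The donor of this intron, taaGTGAGT over the last 3 exon and first 6 intron bases, matched the letters CAGGTAAGT at 6 of 9 positions. Counted likewise, 64.6% of 8621 introns that GENCODE shows both spliced and retained matched at 6 or fewer. A stop codon in the reading frame of Setdb1-201 begins at base 2 of the intron. A transcript that keeps it would read 756 codons in place of 1308. GENCODE holds such a transcript, Setdb1-204, as a retained intron form.

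Lrif1 intron 2 spans 1215 bp, chr3:106536061-106537275 in mm9, between exons 2 and 3 of 4 of Lrif1-201. The inclusion level was 1 in both listed libraries with 4-OHT, pairs 24 and 28, against 0.117 and 0.089 with ethanol. The difference averaged 0.897 ± 0.020 (SD over 2 pairs), rank 5 of 82. The change in level lay in the exclusion reads. They numbered 0 and 0 with 4-OHT and 9 and 20 with ethanol, while inclusion reads numbered 50 and 78 with 4-OHT and 41 and 67 with ethanol. A level of 1 is an estimate from few reads: the Wilson 95% interval ran from 0.275 and 0.372 up to 1 with 4-OHT, and from 0.0614 to 0.212 and from 0.0562 to 0.138 with ethanol. Intervals cover counting error only, since reads without molecular identifiers are not independent molecules.

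The Lrif1 donor, cagGTAATT, matched CAGGTAAGT at 8 of 9 positions. Of the 8621 introns, 91.4% matched at 7 or fewer, so less than Lrif1, and 99.3% at 8 or fewer. Of the last 20 bases of the Lrif1 intron 17 are C or T, above the median of 14, and 32.5% of the intron is G or C against a median of 51.3%. The first stop codon in frame begins at base 133 of the intron, so that a transcript with it would read 558 codons in place of 755. The retained form is held in GENCODE as Lrif1-205, an exon of which covers the whole intron.

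Hdac10 intron 3 spans 230 bp, chr15:88958122-88958351 in mm9, between exons 3 and 4 of 20. The inclusion level was 0.632 and 0.741 with 4-OHT in pairs 26 and 28, against 0.182 and 0.058 with ethanol. Both libraries with 4-OHT were above both with ethanol, and the libraries of each arm stood farther apart than those of Setdb1. The means were 0.687 ± 0.077 with 4-OHT and 0.120 ± 0.088 with ethanol (SD, n = 2 each), a difference of 0.567 ± 0.165 (SD over 2 pairs). Inclusion reads numbered 48 and 40 with 4-OHT and 14 and 3 with ethanol. Exclusion reads numbered 4 and 2 with 4-OHT and 9 and 7 with ethanol. The ethanol library of pair 28 thus rests on 10 reads, and with pair 26 alone, where every library had at least 20 reads, the difference was 0.450.

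The Hdac10 donor, ccgGTGCGA, matched at 5 of 9 positions, as 27.3% of the 8621 introns did at 5 or fewer, and 11 of its last 20 bases are C or T. No stop codon stands in frame within the intron. The frame shifts in exon 4, where a stop codon begins 62 bases after the intron, and a transcript with the intron would read 194 codons in place of 666. Set side by side, the 3 introns share GT at their first and AG at their last bases, as 98.2% of the 8621 introns do. Their donors matched at 6, 8 and 5 positions, and Setdb1 and Lrif1 were longer than 70 and 74 of the 82 listed introns, whose median was 221 bp, while Hdac10 lay near it.

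**Figure D2:**
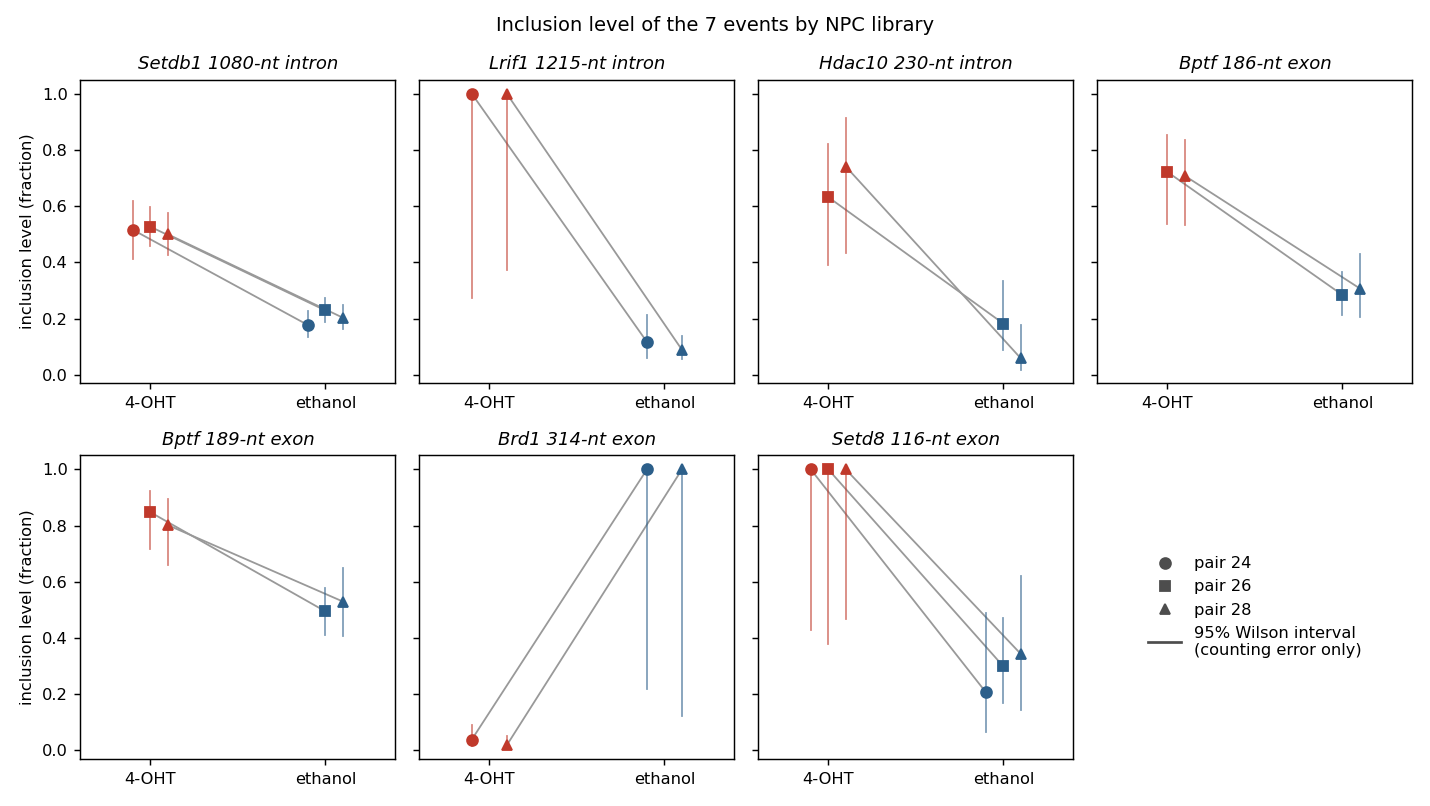
Inclusion level (fraction, y axis) of the 7 events in each listed NPC library, 4-OHT left and ethanol right, with grey lines joining libraries of a pair code and bars for the 95% Wilson interval of counting error. The level was higher with 4-OHT for all events but the Brd1 exon, and the bars are longest for Lrif1, Brd1 and Setd8, where 1 form had 0 reads in an arm.

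Among the 4 cassette exons, both exons of Bptf and that of Setd8 were included more with 4-OHT, and that of Brd1 was included less. Of the 135 skipped exons listed in NPC, 37.8% had higher and 62.2% lower inclusion with 4-OHT.

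Both Bptf exons lie between the same flanking exons of 210 and 188 bp. The 189 bp exon, chr11:106956316-106956504 in mm9, comes first, 525 bp after the upstream exon. Its inclusion level was 0.848 and 0.802 with 4-OHT in pairs 26 and 28, against 0.495 and 0.530 with ethanol, a difference of 0.313 ± 0.057 (SD over 2 pairs). The 186 bp exon, chr11:106948026-106948211 in mm9, lies 4011 bp before the downstream exon. Its inclusion level was 0.722 and 0.708 with 4-OHT against 0.284 and 0.307 with ethanol, a difference of 0.420 ± 0.026 (SD over 2 pairs). In both exons the libraries of an arm were close and the arms apart, and the first exon stood higher than the second in all 4 libraries.

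These are not 2 independent measurements. Both exons are set against the same exclusion reads, those that join the 210 and 188 bp exons directly. They numbered 6 and 7 with 4-OHT and 38 and 18 with ethanol, a summed ratio of 0.232. Inclusion reads were 196 and 166 with 4-OHT and 218 and 119 with ethanol for the 189 bp exon. For the 186 bp exon they were 90 and 98 with 4-OHT and 87 and 46 with ethanol. In pair 26 the inclusion reads of both exons were thus about as many in each arm, with ratios of 0.899 and 1.03, while in pair 28 they were more with 4-OHT, with ratios of 1.39 and 2.13. Reads that join one exon to the other are not given apart.

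Both exons keep the reading frame, with 63 and 62 codons, and neither holds a stop codon in frame. A length that is a multiple of 3 was found in 41.5% of the listed skipped exons. Of the long GENCODE transcripts of Bptf, Bptf-203 holds both exons, Bptf-202 the 186 bp exon alone and Bptf-201 neither. The form that skips both, whose junction reads were fewer with 4-OHT, corresponds to Bptf-201 in this region.

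The Brd1 cassette exon spans 314 bp, chr15:88526791-88527104 in mm9, in an intron of 8888 bp between exons of 105 and 136 bp. Its inclusion level was 0.039 and 0.019 with 4-OHT in pairs 24 and 28, against 1 and 1 with ethanol. The difference of -0.971 ± 0.014 (SD over 2 pairs) ranked 4 of 135 by size. The reads behind it were few. Exclusion reads numbered 16 and 22 with 4-OHT and 0 and 0 with ethanol, and inclusion reads 6 and 4 with 4-OHT and 10 and 5 with ethanol. With 5 to 10 reads, the Wilson 95% interval of the level ran from 0.218 and 0.123 up to 1 with ethanol, against 0.016 to 0.0907 and 0.007 to 0.0514 with 4-OHT. The event had a median of 16 reads a library, against 70 for skipped exons of the table. Reads that join the exons of 105 and 136 bp directly, as the coding transcript Brd1-202 does, thus summed to 38 with 4-OHT and 0 with ethanol under these codes.

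This exon is not annotated as such in GENCODE M21. Its upstream intron of 4098 bp is that of Brd1-205, a transcript without a coding frame whose second exon starts at the same acceptor and runs on for 629 bp. Reads within the cassette exon or over its upstream junction could therefore also come from Brd1-205. Inclusion reads are not split by kind, so how many are of the cassette form is not known. Read in the frame of Brd1-202, a stop codon begins at base 9 of the cassette exon, so that its inclusion would give 824 codons in place of 1058. The donor at its end, cttGTAGGG, matched CAGGTAAGT at 5 of 9 positions.

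The Setd8 cassette exon, exon 2 of 8, spans 116 bp, chr5:124895978-124896093 in mm9. Its inclusion level was 1 in the 3 libraries with 4-OHT, against 0.207, 0.299 and 0.343 with ethanol in pairs 24, 26 and 28. The difference averaged 0.717 ± 0.069 (SD over 3 pairs), rank 15 of 135. Exclusion reads were 0, 0 and 0 with 4-OHT and 4, 11 and 4 with ethanol. Inclusion reads numbered 11, 9 and 13 with 4-OHT and 4, 18 and 8 with ethanol, and were not more in every pair. All 6 libraries had fewer than 30 reads, with a median of 11.5. The Wilson 95% intervals of the 2 arms overlapped in each pair: from 0.428, 0.380 and 0.469 up to 1 with 4-OHT, and up to 0.488, 0.471 and 0.620 with ethanol. Such overlap is not a test of the difference, and the p-values in the authors' deposited table, by which the event was listed, were 0.0213, 0.0351 and 0.0442. In the other 13 pair values of the 7 events the intervals did not overlap, which listing by p-value and difference itself favours. The share without overlap among all listed NPC events was not counted, so this count is no result about the 7 events.

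Of the exon's bases 81.0% are G or C. It follows 10 coding bases in exon 1 and does not keep the frame. Without it, a stop codon begins 105 bases after the junction, and 38 codons would be read in place of 350. GENCODE holds this skipping form, with an intron of 7198 bp, as Kmt5a-213, and classes it as subject to nonsense-mediated decay. Across the 7 events, the level with 4-OHT was higher for the form with a shortened frame in the 3 introns. It was lower for that form in the Setd8 exon and, if its inclusion reads are of the cassette form, in the Brd1 exon. Both forms of each Bptf exon keep the frame.

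**Figure D3:**
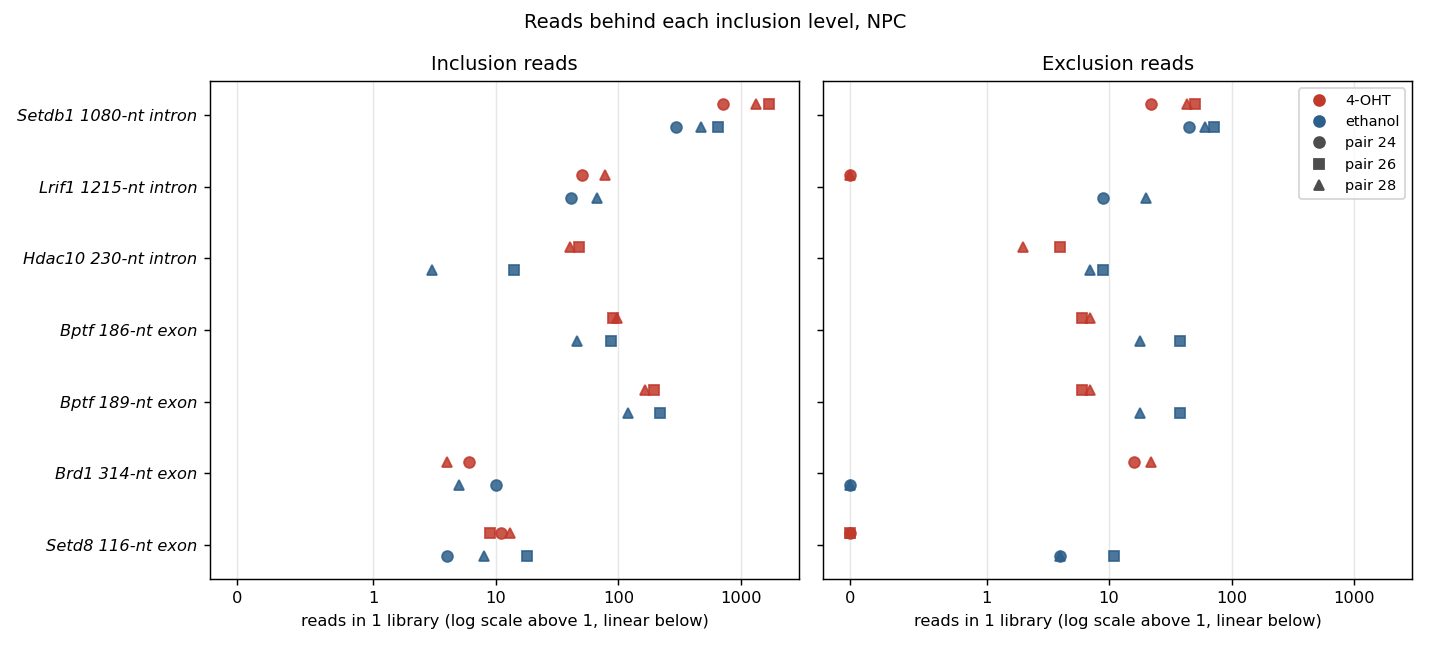
Inclusion reads (left) and exclusion reads (right) of each event in each listed NPC library, on an axis that is logarithmic above 1 and linear below, 4-OHT above ethanol within an event. Exclusion reads were 0 in the 4-OHT libraries for Lrif1 and Setd8 and in the ethanol libraries for Brd1. Inclusion reads were more with 4-OHT in every listed pair for Setdb1, Hdac10, Lrif1 and the 186 bp Bptf exon, by little for Lrif1 and for Bptf in pair 26.

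How strongly reads move a level depends on length. The deposited levels imply that inclusion reads were divided by a length between 3.83 times (Setd8) and 34.3 times (Lrif1) that of exclusion reads. Without this step, as plain shares of reads, the mean differences were 0.085 for Setdb1, 0.205 for Lrif1, 0.228 and 0.105 for the 186 and 189 bp Bptf exons and 0.404 for Setd8. Each of these was more than 1.5 times smaller than the difference in level, with the same direction. The differences for Hdac10 and Brd1 were 0.483 and -0.787. A form with 0 reads in some library was present in 3 of the 7 events, against 38.0% of all listed NPC events. At least 20 reads in every library were found for 4 of the 7, against 77.3%.

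**Figure D4:**
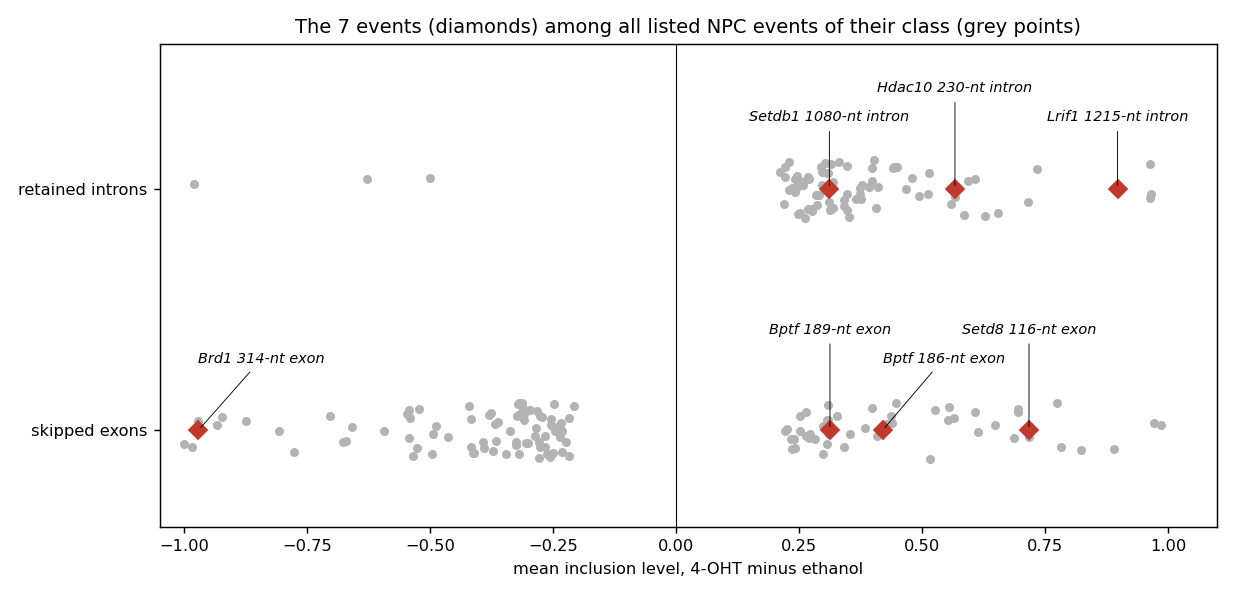
Mean inclusion level, 4-OHT minus ethanol (x axis), of all listed NPC retained introns and skipped exons (grey points, spread vertically for view) and of the 7 events described (red diamonds). Lrif1 and Brd1 lie near the ends of their classes, at 0.90 and -0.97, and Setdb1 and the 189 bp Bptf exon near the many events with differences of about 0.3.

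Other genes showed like levels in the same libraries. For each event the listed event of the same class with the smallest root-mean-square difference of levels was taken. For Setdb1 this was an intron of Tmem44, 0.035 apart over 6 libraries, and for the Brd1 exon an exon of Tmbim6, 0.013 apart over 4. The 189 and 186 bp Bptf exons were nearest to exons of Parp11 (0.062) and Rhot1 (0.076), and the Hdac10 intron to one of Cep110 (0.078), each over 4 libraries. Lrif1 and Setd8 lay farthest from their nearest events, among 39 and 26 candidates. Their nearest were Fancg, 0.163 apart over 4 libraries, and Clk4, 0.147 apart over 6. The distances make no allowance for counting error, which is wide for Lrif1, Brd1 and Setd8. These likenesses are among events listed for a change and carry no test.

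Around the 6 genes, a list of 151 chromatin genes was drawn up: histone methyltransferases, deacetylases and demethylases, acetyltransferase and remodelling complexes, readers, HP1 and SETDB1 partners, and arginine methyltransferases. In splicing, 4 further genes of the list were listed in NPC. With the 6 genes they gave 12 events, 9 higher and 3 lower with 4-OHT, where 158 of all 255 were higher. For classes other than introns and cassette exons, the level is that of the form the authors counted as inclusion. The bromodomain gene Brwd1 had a pair of mutually exclusive exons at a level of 0.370 ± 0.103 with 4-OHT and 0.782 ± 0.096 with ethanol (SD, n = 3 each). The reader gene Trim24 had an alternative donor at 0.568 ± 0.021 with 4-OHT and 0.360 ± 0.023 with ethanol (SD, n = 2 each). The arginine methyltransferase gene Prmt2 had an alternative acceptor at 0.335 ± 0.134 with 4-OHT and 0 in both ethanol libraries. The least-read library had 9 reads for Brwd1, 221 for Trim24 and 24 for Prmt2. The fourth is Prmt5 itself, with a cassette exon at 0.007 ± 0.008 with 4-OHT and 0.882 ± 0.076 with ethanol, and an intron at 0.431 ± 0.043 with 4-OHT and 0.040 ± 0.009 with ethanol (SD, n = 3 each). Prmt5 is the deleted gene, so skipping of its exon and removal of the exon from the gene cannot be told apart. These Prmt5 events are among the 12, and their least-read library had 13 reads for the exon and 40 for the intron. In MEF the list held Prmt5 and the histone methyltransferase gene Mll1. The same Prmt5 exon stood at 0 with 4-OHT and 1 with ethanol in all 3 MEF pairs. The alternative donor of Mll1 stood at 0.037 ± 0.052 with 4-OHT and 0.478 ± 0.067 with ethanol (SD, n = 2 each). In MEF the least-read library had 13 reads for the Prmt5 exon and 7 for Mll1.

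By expression, 15 of the 151 genes were listed in NPC, 14 lower and 1 higher, where 43.4% of all listed genes were lower and 56.6% higher. The 14 include the deleted gene Prmt5. The median log2 fold change of the 15 was -0.69, against 0.66 over all 2416 listed genes. No replicate spread can be given, since the authors' deposited table holds 1 value an arm, and whether the unlisted genes were tested is not known. SETDB1 and HP1 partners gave 4 of the 15. Chaf1a and Chaf1b, subunits of the chromatin assembly factor that brings histones to new DNA, stood at 19.7 and 13.1 RPKM with 4-OHT and 35.0 and 26.3 RPKM with ethanol in the authors' deposited table. Trim28, the corepressor that recruits SETDB1, stood at 90.3 RPKM with 4-OHT and 136 RPKM with ethanol in the authors' deposited table (Cuffdiff p = 6.79e-05, not adjusted). The other, Atf7ip2, was under 0.06 RPKM in both arms.

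After Prmt5, whose log2 fold change of 4-OHT over ethanol was -2.76, and Chaf1b, the lowest were Atad2 at -0.88 and Chaf1a at -0.83, all from the authors' deposited table and among genes that reached 1 RPKM in either arm. Atad2 encodes a bromodomain ATPase. The higher gene was the deacetylase gene Hdac11, at 2.62 RPKM with 4-OHT and 1.73 RPKM with ethanol, or 0.59 as log2 of their ratio in the authors' deposited table (Cuffdiff p = 0.00551, not adjusted). Of the groups nearest the 6 genes, listed members numbered 4 of 13 SETDB1, HP1 and LRIF1 partners, 1 of 14 enzymes of the histone H3 lysine that SETDB1 methylates, 1 of 16 deacetylases and sirtuins, 1 of 10 NURF and related remodelling genes, 1 of 19 in the acetyltransferase complexes and 0 of 7 around SETD8. The share of all tested genes that were listed is not known, so these counts do not show that any group was richer in listed genes. In MEF, Prmt5 alone of the list was listed, as lower, and 49.5% of the 111 MEF genes were lower.

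**Figure D5:**
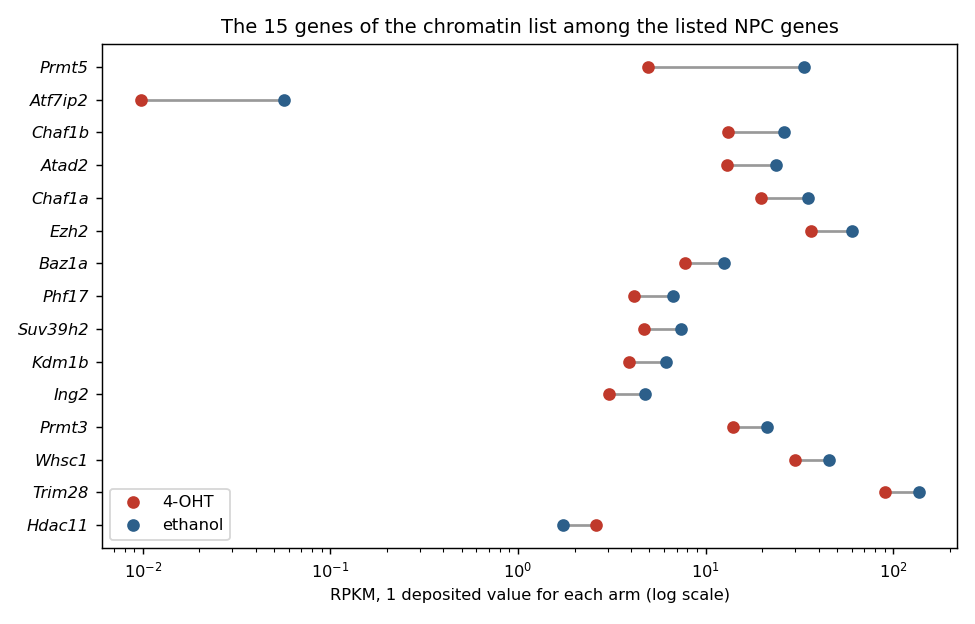
RPKM (x axis, logarithmic) of the 15 listed chromatin genes in NPC with 4-OHT (red) and ethanol (blue), 1 deposited value for each arm and no replicate spread. The 4-OHT value lies below the ethanol value for 14 genes and above it for Hdac11, and the 6 genes with the splicing events are not among the 15.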

How the data were processed

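Total RNA of 12 libraries was sequenced on an Illumina HiSeq, per the series' design text. The submitters' processing notes name CASAVA 1.8, TopHat2 2.03, Bowtie2 2.0.0.6 and the build mm9. The deposited splicing tables give the count of inclusion and exclusion reads per library and the inclusion level as a fraction. They also hold its difference as a signed score (ethanol minus 4-OHT, as deposited by the authors), which was recomputed here as 4-OHT minus ethanol, and an unadjusted p-value deposited by the authors. The tables are named for the caller MATS, whose version is not given in the sources used here. The deposited expression tables, from Cuffdiff 2.02 per the submitters' processing notes, give RPKM per arm, a log2 fold change and a p-value deposited by the authors, for listed genes only. Library totals are not given there, so depth is known only as reads per event, 5 to 1754 a library in the 7 events.

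Levels were averaged over listed libraries with SDs. Wilson 95% intervals of read shares were carried to levels with the length ratio that the deposited levels imply. Coordinates are 1-based. GENCODE M21 is of another build, GRCm38, and was matched by lengths only. Python 3.11.15, pandas 2.3.3 and scipy 1.17.1 were used. The members, lists and tests were chosen with earlier results of these data known. All listed rows of the 6 genes are named. From the list of 151 genes those with a splicing event are named, and by expression those with the 4 largest log2 fold changes in each direction at 1 RPKM or more. Trim28 and Atf7ip2 were added after their values were seen. Libraries under a pair code correlated, as deviations from the arm means, at 0.177, 0.160 and 0.123 over 57 NPC events listed in 3 pairs without Prmt5. That listing itself favours a positive value, and the codes were used as the authors' pairs.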

Additional observations from a re-analysis of the deposited data

How the results depend on the processing

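No event reversed under any alternative tried, but for most of them this was fixed in advance. All listed pairs of an event differed in the same direction, each by more than 0.2. Leaving out pairs, for whatever reason, therefore could not reverse it, and the ranges below show only the spread among listed pairs. Summing reads over libraries moved no difference by more than the spread between libraries. With the pair codes as a replicate block the differences equal those of the arm means, 0.311 for Setdb1 and 0.897 for Lrif1 among them, since each pair has both arms, and no call could change because none was tested. Leaving out 1 pair gave 0.298 to 0.319 for Setdb1, 0.883 to 0.911 for Lrif1, 0.450 to 0.683 for Hdac10, 0.401 to 0.438 and 0.272 to 0.353 for the 186 and 189 bp Bptf exons, -0.981 to -0.961 for Brd1 and 0.679 to 0.747 for Setd8. Plain read shares without length normalization gave 0.0851 for Setdb1, 0.205 for Lrif1, 0.483 for Hdac10, 0.228 and 0.105 for the Bptf exons, -0.787 for Brd1 and 0.404 for Setd8, by construction of the share. With at least 20 reads in each library, Hdac10 gave 0.450, Brd1 and Setd8 had no pair left, and the chromatin list held 7 events in place of 12 in NPC and 0 in place of 2 in MEF. The 14 lower genes of the list became 13 at 1 RPKM or more and 13 with a deposited p under 0.01. The log2(RPKM + 1) alternative could not be run, since 0 of the 6 genes was listed. Depth limits Brd1 and Setd8 most.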

Other observations

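Bptf was 1 of 13 genes in the NPC table with several cassette exons set against a single exclusion junction. Others were Mdm2, Top3b and Nnat, the last with 3 such exons. Their entries count the same exclusion reads more than once, so events of these genes are fewer measurements than rows.

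Total reads of an event also differed between arms. Inclusion reads come from a longer stretch than exclusion reads, so a total itself moves with the level. The totals were not corrected for this. The ratio of all reads with 4-OHT to all reads with ethanol was 2.17, 2.42 and 2.54 for the Setdb1 intron in pairs 24, 26 and 28, where the medians over all listed events were 0.980, 1.09 and 1.27. It was 2.26 and 4.20 for Hdac10 in pairs 26 and 28 and 2.20 and 5.20 for Brd1 in pairs 24 and 28. It was 1.00 and 0.897 for Lrif1 in pairs 24 and 28. For Setd8 it was 1.38, 0.310 and 1.08 in pairs 24, 26 and 28. In pairs 26 and 28 it was 0.768 and 1.64 for the 186 bp Bptf exon and 0.789 and 1.26 for the 189 bp exon, so that neither Setd8 nor Bptf had more reads with 4-OHT in every pair. These medians are taken over events listed for a change and are no measure of library depth. Total reads were more with 4-OHT for Brd1, which rests on few reads, although its level was lower. They were not more for Lrif1, although its level was higher.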
